A study of Rattus norvegicus with 8 samples.

Results

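The genes described here are the motor proteins of the cytoskeleton and their closest subunits: kinesins with their light chains, cytoplasmic dyneins, dynactin and unconventional myosins. They were the 81 genes, of 32623 annotated, whose symbol in the authors' deposited comparison table begins with Kif and a number or c, Klc1 to Klc4, Dync, Dynl, Dctn, or Myo and a number. RNA was taken from wild-type SD rat hippocampal neurons cultured for 18 days. Of 8 libraries, 4 belong to neurons treated with a positive allosteric modulator (PAM) of the NMDA receptor, a compound that strengthens the channel's response to glutamate, and 4 to vehicle-treated neurons. Both groups share strain, genotype and age, and the sources used here name neither the compound, its dose nor the time of exposure. They also do not say whether replicates were separate cultures, so p-values measure the spread between these libraries, which may be technical. Libraries held 2960406 to 4389430 counts, of which motor genes took 0.739% to 0.793% in PAM and 0.832% to 0.880% in vehicle libraries. No 2 replicates were alike within sampling noise, and the chi-square over degrees of freedom of their counts was 4.57 to 15.9 between PAM libraries and 2.85 to 4.23 between vehicle libraries. PAM 3 and PAM 4 stood apart from PAM 1 and PAM 2 (7.87 to 15.9), so values without both are given where a call changes.

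Kinesins and cytoplasmic dynein walk along microtubules, most kinesins towards the plus end and dynein towards the minus end, while myosins move on actin. Neurons depend on them because vesicles, mitochondria and RNA made in the cell body must reach distant axon and dendrite tips. Another set of kinesins builds the spindle and separates chromosomes in dividing cells, and a further set acts in cilia. Dynein-1 works with dynactin as its activator, and its light chains also bind many proteins outside the motor.

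Of the 81 genes, 72 had enough counts to be tested, and 21 passed edgeR's quasi-likelihood test of PAM against vehicle at a Benjamini-Hochberg (BH) adjusted p under 0.05. The verbs rose and fell are used only for these. The 6 that rose were Kif22, Kif11, Kif18b, Dynlrb2, Dynlt1 and Myo6. The 15 that fell were Kif5a, Kif5c, Kif1a, Kif3c, Kif21a, Kif21b, Kifc2, Klc1, Klc2, Kif2a, Dync1h1, Dync1i1, Myo5a, Myo9a and Myo18a. Among all 11740 tested genes 18.9% were called, with 9.0% higher and 9.89% lower, whereas 8.33% of the tested motor genes rose and 20.8% fell. The share that rose lay near that background. Without PAM 3 and PAM 4, 15 of the 72 rose and 15 fell, but calls also grew in number over all 12253 genes tested in that fit, to 2900 or 23.7% (11.2% higher and 12.5% lower). The median log2 fold change was -0.11 over the 72 motor genes and 0.02 over all tested genes. PAM and vehicle libraries did not overlap for 24 of the 72, 8 with PAM above and 16 with PAM below, against 22.3% of all tested genes (10.3% and 12%). In the authors' deposited table the same 21 genes had an adjusted p under 0.05, with the same directions. The other 9 genes, with too few counts, were Kif6, Kif24, Klc3, Myo1a, Myo1f, Myo5c, Myo7b, Myo15a and Myo18b, with at most 15 counts in any library.

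**Figure D1:**
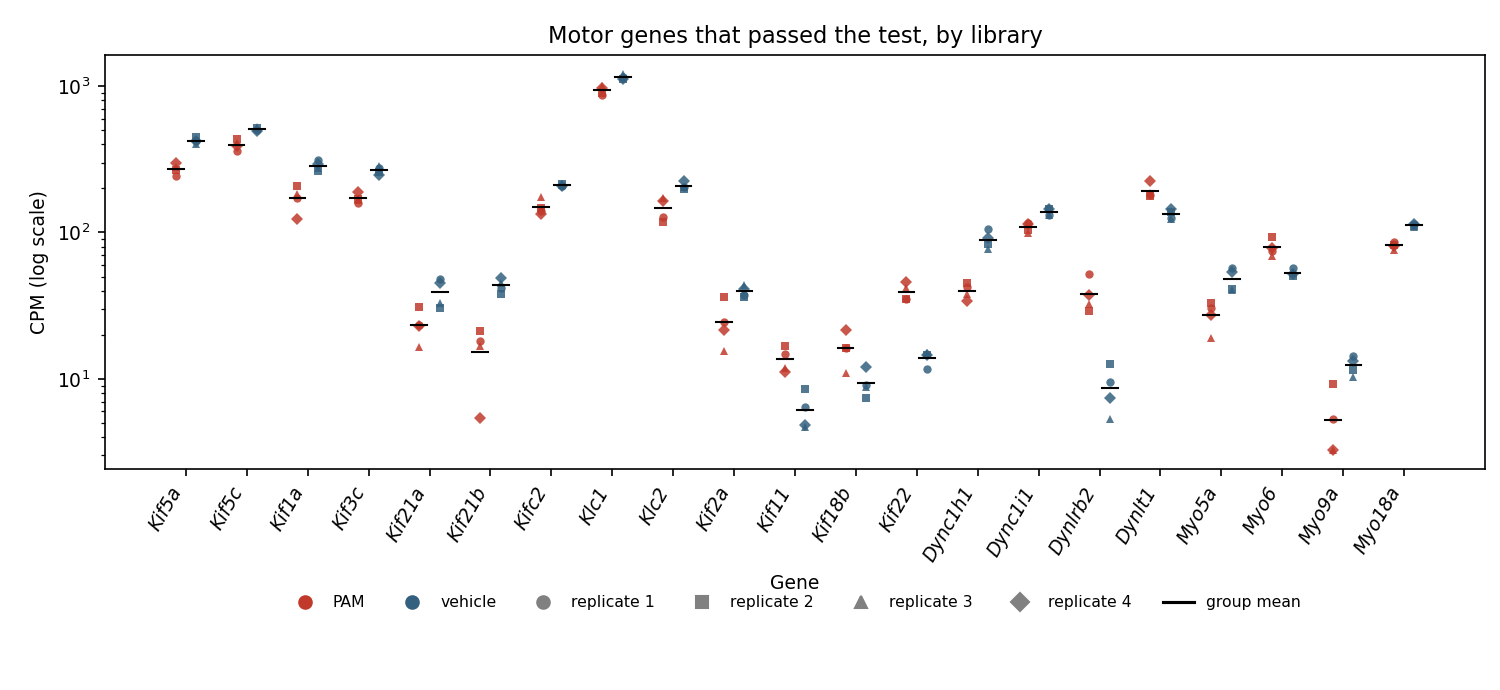
CPM (counts scaled to library size after trimmed-mean scaling, log axis) of the 21 motor genes that passed the test. Each library has 1 point (shape marks the replicate number), with PAM left of vehicle and a bar at each group mean. For Kif22 all PAM points (35.0 to 46.1 CPM) lie above all vehicle points (11.6 to 15.0 CPM), and for Kif21b the order is the opposite.

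Listed markers of several cell types differed between the groups in these libraries, and the values stand here because the role classes below share them. Levels are in CPM (counts scaled to the library size after trimmed-mean scaling). The counts below stand beside 9.0% called higher and 9.89% called lower over all tested genes. Markers of dividing cells rose in 14 of 17 tested genes and none fell. Their summed level was 507 to 719 CPM in PAM libraries and 228 to 288 CPM in vehicle libraries. Ependymal markers, which label the ciliated cells that line the ventricles, rose in 14 of 15, with a sum of 311 to 512 CPM in PAM libraries and 98.3 to 159 CPM in vehicle libraries. Neuron markers fell in 5 of 11 and none rose, at 4252 to 5036 CPM in PAM libraries and 5657 to 6434 CPM in vehicle libraries. Astrocyte markers rose in 4 of 9, at 7780.4 to 9544 CPM in PAM libraries and 5306 to 5548 CPM in vehicle libraries. Oligodendrocyte markers rose in 5 of 10 and fell in 1, at 1350.2 to 1759 CPM in PAM libraries and 958 to 1071 CPM in vehicle libraries. Mesenchymal and mural markers rose in 2 of 7, at 314 to 520.2 CPM in PAM libraries and 343 to 515 CPM in vehicle libraries. Of 10 listed microglial markers, 5 were matched to a gene and only 3 had enough counts to be tested. Microglial markers were called in 0 of 3, at 15.1 to 25.8 CPM in PAM libraries and 23.7 to 65.1 CPM in vehicle libraries. None of the matched markers of these lists was at 0 in all libraries. In bulk RNA, fewer cells of a type and less RNA per cell cannot be told apart, and the part of cell makeup in the results below was not tested. Relative to the mean of all libraries, log2 CPM fell off with longer exonic sequence in PAM 3 (-0.0853 per doubling of length) and PAM 4 (-0.132 per doubling), and ran at 0.00524 to 0.0627 per doubling in the remaining libraries.

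Transport kinesins, which carry cargo along axons and dendrites, were lower with PAM. Their 17 genes summed to 2069, 2273, 2168 and 2098 CPM in PAM 1 to 4, against 2816, 2772, 2712 and 2731 CPM in vehicle 1 to 4. Every PAM library lay below every vehicle library, and the mean sum with PAM was 0.780 times that with vehicle. Of the 17 genes 7 (41.2%) fell and none rose, beside 9.89% called lower and 9.0% called higher over all tested genes. The median log2 fold change was -0.25, and 13 of the 17 values were negative. With only kinesin-1, kinesin-2 and kinesin-3 genes counted, 4 of 13 fell and the median was -0.20. Transport kinesin transcripts are long (median exonic length 5550 bases, against 2457 for all tested genes), and removal of each library's length trend brought the class median to -0.16 with 6 genes lower.

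The heavy chains of kinesin-1, the main anterograde motor of axons, are encoded by Kif5a, Kif5b and Kif5c. Kif5a, the form restricted to neurons (ENSRNOG00000005299; Rnor_6.0 chromosome 7, 70513343 to 70556827, minus strand), stood at 244, 268, 279 and 296 CPM in PAM 1 to 4, against 422, 447, 400.1 and 419.9 CPM in vehicle 1 to 4. The groups were well apart, the highest PAM value lying below the lowest vehicle value, and Kif5a fell by a log2 fold change of -0.64 ± 0.10 (SE; edgeR, BH-adjusted p = 0.000192). Kif5c, also enriched in neurons, had 359, 436, 407 and 390.5 CPM in PAM 1 to 4, against 501, 515, 525 and 497 CPM in vehicle 1 to 4. It fell less, at -0.35 ± 0.10 (edgeR, BH-adjusted p = 0.0151), again without overlap. Kif5b, the form found in most cell types, had 25.8, 43.9, 20.8 and 15.9 CPM in PAM 1 to 4, against 26.2, 28.4, 13.8 and 24.9 CPM in vehicle 1 to 4 and did not pass, at 0.21 ± 0.28 (edgeR, BH-adjusted p = 0.661). Its groups overlapped, with PAM 2 the highest of all libraries, and without PAM 2 its log2 fold change was -0.15. Within the family, Kif5a held 38.8%, 35.8%, 39.4% and 42.1% of the summed CPM in PAM 1 to 4, against 44.4%, 45.1%, 42.6% and 44.6% in vehicle 1 to 4. All PAM shares lay below all vehicle shares, although PAM 4 and vehicle 3 were close. The Kif5c call ended without vehicle 2 or 3 or PAM 1 (edgeR, BH-adjusted p = 0.0548 to 0.0564 in those fits) and with the length trend removed (log2 fold change -0.23, edgeR, BH-adjusted p = 0.133). These genes are paralogs, and how the authors' counting treated reads shared between them is not given in the sources used here.

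The kinesin light chains Klc1 and Klc2, which link kinesin-1 to its cargo, fell as well. Klc1 was the most abundant motor gene by CPM, at 934 ± 58.5 CPM in PAM and 1149 ± 41.3 CPM in vehicle libraries (SD, n = 4 each), and its groups did not overlap. Its log2 fold change was -0.30 ± 0.09 (edgeR, BH-adjusted p = 0.0315). Klc2 had 127, 119, 172 and 165 CPM in PAM 1 to 4, against 204, 198, 204 and 226 CPM in vehicle 1 to 4, a log2 fold change of -0.52 ± 0.12 (edgeR, BH-adjusted p = 0.00674). All PAM values of Klc2 were lower than all vehicle values, with PAM 1 and PAM 2 the lowest. Klc4 was at 42.1 ± 8.14 CPM in PAM and 42.2 ± 3.83 CPM in vehicle libraries and did not pass, with a log2 fold change of -0.0044. The Klc1 call ended without any single vehicle library, without PAM 1 (edgeR, BH-adjusted p = 0.0707 to 0.107 in those fits) and with the length trend removed (edgeR, BH-adjusted p = 0.0906).

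Kinesin-2 motors carry cargo in neurons and also serve intraflagellar transport in cilia. Kif3c, the neuron-enriched member, had 159, 170.4, 166 and 190.0 CPM in PAM 1 to 4, against 273, 260.1, 283 and 245 CPM in vehicle 1 to 4. PAM libraries lay below 200 CPM and vehicle libraries above it, and Kif3c fell, with a log2 fold change of -0.63 ± 0.10 (edgeR, BH-adjusted p = 0.000276). The related genes Kif3a and Kif3b, whose products form the ciliary and vesicle-carrying heterotrimer, did not pass, at -0.25 ± 0.14 and -0.26 ± 0.13. Kif3a values ran 40.5 to 54.6 CPM in PAM and 55.4 to 60.7 CPM in vehicle libraries, without overlap. Kif17, a dendritic motor that carries NMDA receptor subunit GluN2B, was at 16.2 ± 2.72 CPM in PAM and 18.8 ± 2.004 CPM in vehicle libraries, with a log2 fold change of -0.20 ± 0.22 and overlapping groups.

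Among kinesin-3 genes, which carry synaptic vesicle precursors and dense-core vesicles, Kif1a fell. It had 173, 209, 183 and 124 CPM in PAM 1 to 4, against 311, 265, 276 and 293 CPM in vehicle 1 to 4. PAM 4 was the lowest and no PAM value reached the vehicle range, with a log2 fold change of -0.73 ± 0.13 (edgeR, BH-adjusted p = 0.000728). Kif1b, which carries synaptic vesicle precursors or mitochondria depending on its isoform, was the most abundant transport kinesin by CPM at 572 ± 20.3 CPM in PAM and 601 ± 21.6 CPM in vehicle libraries. It did not pass, at -0.07 ± 0.09 (edgeR, BH-adjusted p = 0.641), and had the longest exonic sequence of the class, 15549 bases. It stood at 0.16 once length trends were removed. Kif1c, a broadly expressed carrier of dense-core vesicles and integrins, went the other way at 121, 97.7, 97.5 and 107 CPM in PAM 1 to 4, against 85.1, 81.8, 95.8 and 75.1 CPM in vehicle 1 to 4. Its PAM values all lay above its vehicle values, yet it did not pass (log2 fold change 0.33 ± 0.12, edgeR, BH-adjusted p = 0.0679). It passed without PAM 2, with upper-quartile scaling, with the length trend removed, or without both PAM 3 and PAM 4 (edgeR, BH-adjusted p = 0.0492, 0.0479, 0.0405 and 0.0215). Kif13a, Kif13b and Kif16b, which move endosomes, had log2 fold changes of -0.11 ± 0.21, 0.09 ± 0.65 and -0.20 ± 0.41 with overlapping groups.

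The neuronal kinesin-4 genes Kif21a and Kif21b, whose products carry cargo and restrain microtubule growth, fell. Kif21b (ENSRNOG00000008471; Rnor_6.0 chromosome 13, 52976507 to 53023103, plus strand) had 18.2, 21.1, 16.7 and 5.41 CPM in PAM 1 to 4, against 41.5, 38.0, 45.1 and 49.2 CPM in vehicle 1 to 4. Its log2 fold change of -1.46 ± 0.26 was the most negative of all 72 tested motor genes (edgeR, BH-adjusted p = 0.000602). PAM 4 was lower than the other PAM libraries, and without both PAM 3 and PAM 4 the value was -1.12. Kif21a had 23.3, 30.9, 16.4 and 23.1 CPM in PAM 1 to 4, against 48.2, 30.6, 32.9 and 45.3 CPM in vehicle 1 to 4, a log2 fold change of -0.73 ± 0.21 (edgeR, BH-adjusted p = 0.0195). Here PAM 2 reached just into the vehicle range, and the call ended without vehicle 1 or 4 or PAM 3 (edgeR, BH-adjusted p = 0.0655 to 0.0813 in those fits) or without both PAM 3 and PAM 4 (-0.51, edgeR, BH-adjusted p = 0.0601). Kifc2, a minus-end-directed kinesin of neurons, had 139.7, 147, 173 and 133 CPM in PAM 1 to 4, against 209, 214, 209.8 and 208 CPM in vehicle 1 to 4. The vehicle values were nearly equal, every PAM value was lower, and Kifc2 fell with a log2 fold change of -0.50 ± 0.11 (edgeR, BH-adjusted p = 0.00269). Kifc3, the related minus-end motor of epithelial junctions, was at 79.3 ± 8.98 CPM in PAM and 76.8 ± 11.2 CPM in vehicle libraries and did not pass (0.05 ± 0.13). Outside the transport class, Kif2a, a microtubule depolymerase that limits axon branching, had 24.4, 36.5, 15.6 and 21.6 CPM in PAM 1 to 4, against 37.5, 36.1, 43.5 and 41.1 CPM in vehicle 1 to 4 and fell at -0.67 ± 0.21 (edgeR, BH-adjusted p = 0.0333). PAM 2 overlapped the vehicle values, the call ended without any single vehicle library or without PAM 1 or PAM 3 (edgeR, BH-adjusted p = 0.0609 to 0.0991 in those fits), and without both PAM 3 and PAM 4 the value was -0.36 (edgeR, BH-adjusted p = 0.182). Kif26a and Kif26b, kinesins without motor activity, were low, at 5.22 ± 2.54 CPM in PAM and 5.31 ± 2.76 CPM in vehicle libraries for Kif26a and 1.39 ± 1.18 CPM in PAM and 3.10 ± 1.28 CPM in vehicle libraries for Kif26b, and neither passed (log2 fold changes 0.02 ± 0.46 and -1.11 ± 0.62).

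Mitotic kinesins were higher with PAM. Their 11 genes summed to 172, 189, 153 and 171 CPM in PAM 1 to 4, against 93.6, 98.5, 104 and 99.97 CPM in vehicle 1 to 4. The groups did not overlap, and the mean sum with PAM was 1.73 times that with vehicle. Of the 11 genes 3 (27.3%) rose and none fell, beside 9.0% called higher and 9.89% called lower over all tested genes. All 11 log2 fold changes were positive, and the median was 0.78, against -0.25 for the transport kinesins. Kif2a, placed outside this class while its relative Kif2c was placed in it, fell (log2 fold change -0.67 ± 0.21). With Kif2a counted as mitotic, the class would not hold a single direction. Transport kinesins summed to 12.03, 12.02, 14.2 and 12.2 times the mitotic kinesins in PAM 1 to 4, against 30.1, 28.1, 26.1 and 27.3 times in vehicle 1 to 4. Those ratios lay in ranges far apart, although mitotic kinesins stayed the minor class in every library. Dividing-cell markers moved the same way in the same libraries (median log2 fold change 1.13), and their part in this result was not tested. Leaving out both PAM 3 and PAM 4 brought the count of mitotic kinesins that rose to 7 of 11, while 11.2% of all genes tested in that fit were called higher.

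**Figure D2:**
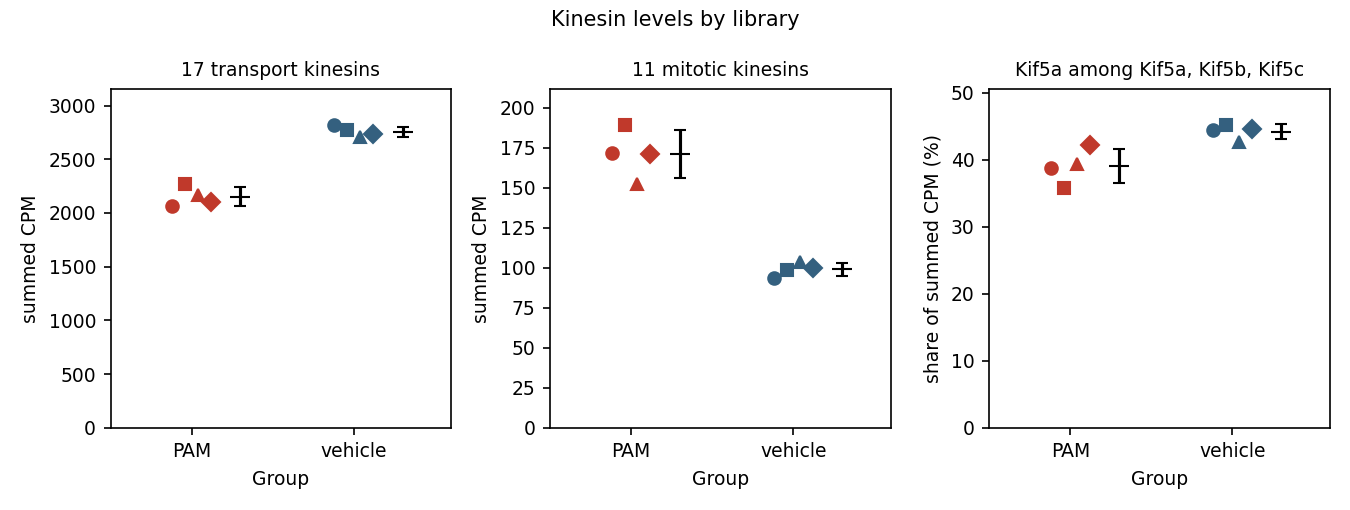
Summed CPM of the 17 transport kinesins (left) and the 11 mitotic kinesins (middle), and the percentage of Kif5a in the summed CPM of Kif5a, Kif5b and Kif5c (right), with 1 point per library (shape marks the replicate number) and the group mean ± SD beside the points (n = 4 per group). Transport kinesin sums are 2069 to 2273 CPM in PAM and 2712 to 2816 CPM in vehicle libraries, and mitotic kinesin sums are 153 to 189 CPM in PAM and 93.6 to 103.9 CPM in vehicle libraries.

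Kif22, a chromokinesin that pushes chromosome arms from the spindle poles (ENSRNOG00000020281; Rnor_6.0 chromosome 1, 198461169 to 198476476, minus strand), showed the clearest difference of the class. It had 35.0, 35.0, 41.6 and 46.1 CPM in PAM 1 to 4, against 11.6, 14.6, 15.0 and 14.6 CPM in vehicle 1 to 4. The lowest PAM value lay well above the highest vehicle value, with a log2 fold change of 1.49 ± 0.19 (edgeR, BH-adjusted p = 2.46e-05). Kif11, the plus-end motor that keeps spindle poles apart, had 14.8, 16.8, 11.8 and 11.2 CPM in PAM 1 to 4, against 6.40, 8.53, 4.70 and 4.85 CPM in vehicle 1 to 4. It rose without overlap, with a log2 fold change of 1.15 ± 0.30 (edgeR, BH-adjusted p = 0.0109). The reads behind it were few, with counts 64, 79, 43 and 31 in PAM 1 to 4, against 21, 31, 15 and 15 in vehicle 1 to 4. Kif18b, a depolymerase of astral microtubules, had 16.1, 16.2, 10.95 and 21.6 CPM in PAM 1 to 4, against 9.15, 7.43, 8.77 and 11.97 CPM in vehicle 1 to 4, a log2 fold change of 0.79 ± 0.27 (edgeR, BH-adjusted p = 0.0498). Its groups overlapped at PAM 3 and vehicle 4, and its p sat at the threshold. The call ended without any single vehicle library and without PAM 1, PAM 2 or PAM 4 (edgeR, BH-adjusted p = 0.0543 to 0.145 in those fits), with no low-count filter (0.0604) or a minimum mean of 1 CPM (0.0554), and in DESeq2 as run here (0.0507) and limma-voom (0.0657). The authors' deposited DESeq2 comparison gave Kif18b an adjusted p of 0.0386. Kif4a, a chromokinesin of the midzone, and Kifc1, which focuses spindle poles, did not pass despite groups that did not overlap, with log2 fold changes of 0.81 ± 0.31 and 0.51 ± 0.23 (edgeR, BH-adjusted p = 0.0754 and 0.13). Kifc1 was at 19.6 ± 4.41 CPM in PAM and 13.6 ± 0.342 CPM in vehicle libraries. Kif20a, a motor of cytokinesis, was at 24.2 ± 7.46 CPM in PAM and 20.3 ± 2.55 CPM in vehicle libraries and did not pass (0.27 ± 0.23), except without both PAM 3 and PAM 4 (0.60, edgeR, BH-adjusted p = 0.0329). The remaining 5 were Kif2c, which corrects chromosome attachments (log2 fold change 0.87 ± 0.36), the midzone motor Kif23 (0.78 ± 0.31), the spindle motor Kif15 (0.64 ± 0.44), the cytokinesis motor Kif20b (0.59 ± 0.44) and the depolymerase Kif18a (0.47 ± 0.38), each with overlapping groups. Kif23 passed without PAM 3 (edgeR, BH-adjusted p = 0.0444), and Kif18a turned to -0.01 without PAM 2. Without both PAM 3 and PAM 4, Kif23, Kif2c and Kif18a passed, with log2 fold changes of 1.11, 0.998 and 0.98 (edgeR, BH-adjusted p = 0.00645, 0.0480 and 0.0303).

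A few promoters are shown because mitotic kinesins were higher with PAM while the transport kinesins were lower. The printed genes follow no fixed rule, and of the mitotic ones Kifc1 and Kif23 had not passed the test. Promoter sequences came from RefSeq (build GRCr8) for 64 of the 81 genes, 1 start per gene, and the 250 bases before the start were searched on both strands. The 3 motifs searched were TTTGAA, the core of the cell-cycle genes homology region through which repressor complexes act on mitotic genes, CCAAT, the box bound by the factor NF-Y, and GTTGCC, a half-site of the X-box that RFX factors bind at ciliary genes. Transport kinesins without a matched promoter were Kif5a, Kif13b, Kif21b, Kifc2 and Kifc3, and of these Kif5a, Kif21b and Kifc2 fell. TTTGAA occurred in 5 of 11 mitotic kinesin promoters and 0 of 12 transport kinesin promoters, against 16.0% of all promoters and 9.59% of those of tested genes. CCAAT occurred in 7 of 11 and 3 of 12, against 34.3% of all promoters and 35.7% of those of tested genes. GTTGCC occurred in 2 of 11 and 3 of 12, against 9.90% of all promoters and 10.9% of those of tested genes. Kif20b, Kif22, Kif23 and Kifc1 held both TTTGAA and CCAAT, and Kif2c, Kif18a and Kif18b held neither. Both occurred in 5.76% of all promoters, and they overlapped in none of these 4 genes. A match in these windows is a description and not a binding site. The 120 bases before the start are printed 5′ to 3′ on the gene's strand, with matches to TTTGAA or CCAAT, on either strand, in capitals (TTCAAA and ATTGG are the reverse-strand forms).
Kif22 (chr1:191080879-191080998, minus strand): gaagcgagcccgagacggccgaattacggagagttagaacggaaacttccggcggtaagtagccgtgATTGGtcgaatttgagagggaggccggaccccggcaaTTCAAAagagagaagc
Kif11 (chr1:244536747-244536866, plus strand): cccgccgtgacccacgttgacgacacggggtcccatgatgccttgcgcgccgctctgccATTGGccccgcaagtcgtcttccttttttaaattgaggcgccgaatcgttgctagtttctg
Kifc1 (chr20:5000809-5000928, plus strand): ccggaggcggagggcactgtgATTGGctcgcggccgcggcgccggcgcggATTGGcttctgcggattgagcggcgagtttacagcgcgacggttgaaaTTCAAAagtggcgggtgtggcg
Kif23 (chr8:71320585-71320704, minus strand): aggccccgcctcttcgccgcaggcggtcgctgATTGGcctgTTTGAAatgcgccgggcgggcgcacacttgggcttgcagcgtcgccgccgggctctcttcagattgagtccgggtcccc
Kif1a (chr9:101094778-101094897, minus strand): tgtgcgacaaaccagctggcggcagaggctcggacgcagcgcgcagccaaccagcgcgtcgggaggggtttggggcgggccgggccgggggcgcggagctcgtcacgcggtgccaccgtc
Kif3c (chr6:32086759-32086878, plus strand): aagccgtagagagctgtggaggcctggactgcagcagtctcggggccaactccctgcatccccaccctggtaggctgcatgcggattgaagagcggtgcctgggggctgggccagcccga
In Kif22 the TTTGAA match began 16 bases and the nearest CCAAT match 53 bases before the start, and in Kifc1 22 and 70 bases before it. Kif11 had a CCAAT match alone, and Kif1a and Kif3c, both lower with PAM, had neither. Not printed were Kif18b, which rose and had neither, and the transport kinesins Kif1b, Kif3b and Kif5b, which held CCAAT. 

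Kinesins of cilia did not pass the test. Kif9, a motor of the ciliary central apparatus, had 13.1, 10.7, 1.64 and 2.52 CPM in PAM 1 to 4, against 7.62, 3.03, 2.19 and 1.29 CPM in vehicle 1 to 4. Kif19, which sets cilium length by depolymerizing microtubules, had 10.4, 4.69, 4.11 and 0 CPM in PAM 1 to 4, against 0.610, 3.30, 1.88 and 1.62 CPM in vehicle 1 to 4. In both genes PAM 1 and PAM 2 were higher than any vehicle library and PAM 4 was not, and for Kif9 PAM 3 also lay within or below the vehicle range. The log2 fold changes were 1.01 ± 0.61 and 1.39 ± 0.71 (edgeR, BH-adjusted p = 0.272 and 0.187). Kif19 passed without PAM 4 (1.75, edgeR, BH-adjusted p = 0.0196), and both passed without PAM 3 and PAM 4 together (1.75 for Kif9 and 1.99 for Kif19, edgeR, BH-adjusted p = 0.00241 and 0.00629). Kif19 shares 11.95% of its exonic bases with the opposite-strand gene Btbd17, so its reads are uncertain. Kif27, related to the hedgehog regulator Kif7, and Kif7 itself were at 13.2 ± 5.20 CPM in PAM and 10.9 ± 3.52 CPM in vehicle libraries for Kif27 and 10.04 ± 1.69 CPM in PAM and 12.04 ± 2.58 CPM in vehicle libraries for Kif7, with log2 fold changes of 0.28 ± 0.33 and -0.26 ± 0.27 and overlapping groups. Kif6, an ependymal cilium kinesin, had too few reads to test, with counts 11, 8, 2 and 0 in PAM 1 to 4, against 2, 0, 1 and 3 in vehicle 1 to 4. Kif24, which trims cilia, had counts 15, 12, 4 and 0 in PAM 1 to 4, against 3, 5, 3 and 4 in vehicle 1 to 4. In both, PAM 1 and PAM 2 held the most reads and PAM 4 held none.

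**Figure D3:**
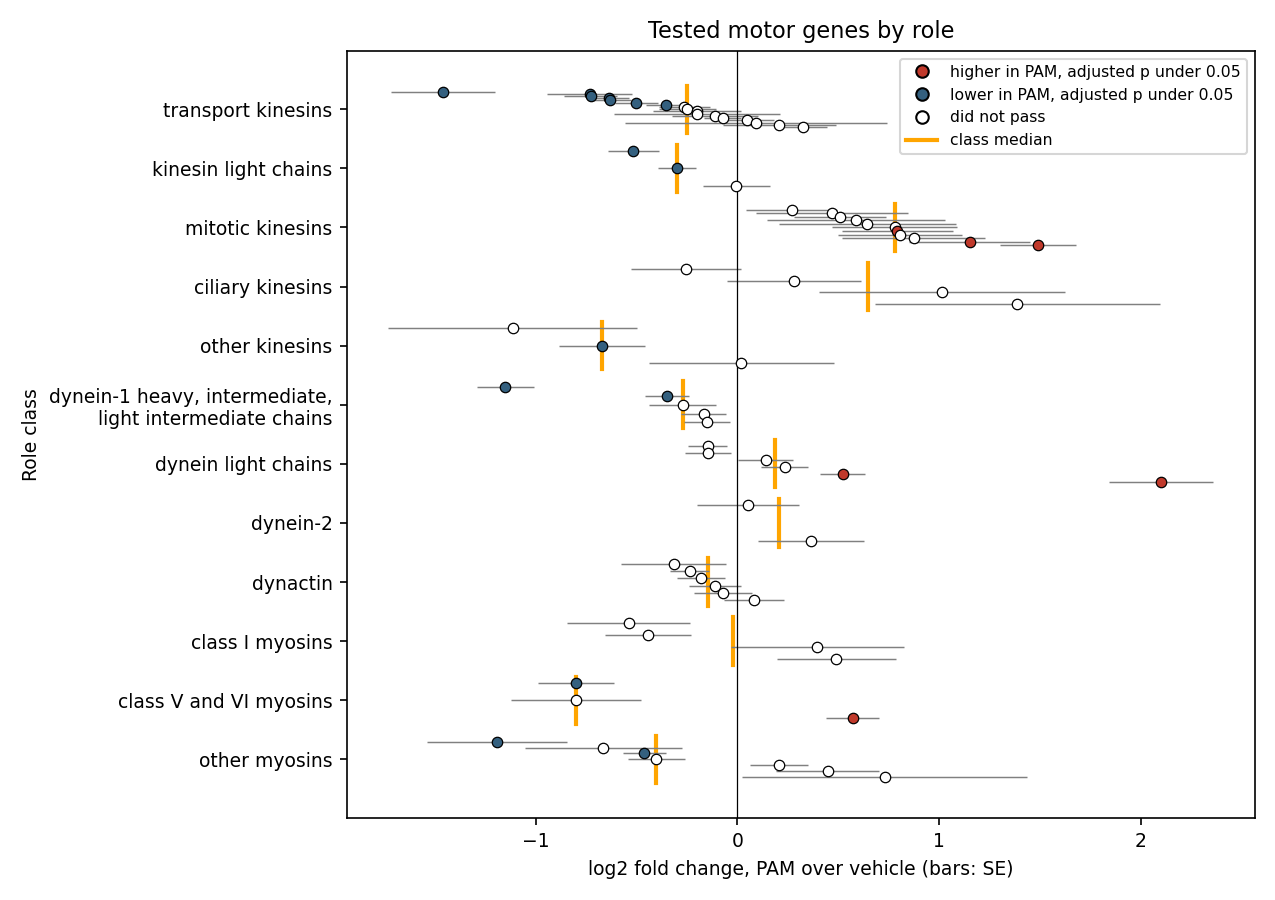
Log2 fold change of PAM over vehicle for 71 of the 72 tested motor genes (all but Kif1bp, which is not a motor), by role class, with bars of 1 SE, filled points for genes past the test and an orange line at each class median. Mitotic kinesins all lie right of 0 (median 0.78), and transport kinesins lie mostly left of it (median -0.25).

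Within dynein-1, the retrograde motor of axons, the heavy chain fell most. Dync1h1, which holds the motor domain (ENSRNOG00000006178; Rnor_6.0 chromosome 6, 134958854 to 135085769, plus strand), had 42.4, 45.4, 37.8 and 34.3 CPM in PAM 1 to 4, against 106, 83.4, 77.0 and 90.9 CPM in vehicle 1 to 4. All PAM values lay far below all vehicle values, with a log2 fold change of -1.15 ± 0.14 (edgeR, BH-adjusted p = 2.02e-05). At 17600 exonic bases it was the longest of the motor genes, and its log2 fold change was -0.92 with the length trend removed and -1.01 without both PAM 3 and PAM 4. The heavy chain's level per length was low, at 2.27 ± 0.280 CPM per kilobase in PAM and 5.07 ± 0.704 in vehicle libraries. For the intermediate chain gene Dync1i1, enriched in neurons, it was 41.2 ± 3.14 in PAM and 52.4 ± 2.78 in vehicle libraries (SD, n = 4 each). Whether reads covered both transcripts evenly was not tested. Dync1i1 had 117, 104, 99.4 and 115 CPM in PAM 1 to 4, against 132, 144, 132 and 146 CPM in vehicle 1 to 4. It fell without overlap, at -0.35 ± 0.11 (edgeR, BH-adjusted p = 0.0294), and the call ended without vehicle 2, 3 or 4 or PAM 3 (edgeR, BH-adjusted p = 0.0510 to 0.0936 in those fits). Dync1i2, the ubiquitous intermediate chain gene, was at 114 ± 12.1 CPM in PAM and 126 ± 7.79 CPM in vehicle libraries. The light intermediate chain genes, which hold the adaptors that join dynein to cargo, were at 40.6 ± 8.71 CPM in PAM and 49.4 ± 4.49 CPM in vehicle libraries for Dync1li1 and 154 ± 18.0 CPM in PAM and 173 ± 13.01 CPM in vehicle libraries for Dync1li2. None of these 3 passed, at log2 fold changes of -0.15 ± 0.11, -0.27 ± 0.17 and -0.17 ± 0.11. All 5 values of the class were negative, and 2 (40%) passed, beside 9.89% called lower over all tested genes.

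Dynein light chains moved differently, with 2 of 6 genes (33.3%) higher and none lower, beside 9.0% and 9.89% over all tested genes. Dynlrb2, Dynll1, Dynlrb1 and Dynlt1 have short exonic sequences (565 to 729 bases), and log2 CPM fell off with length in PAM 3 and PAM 4. Dynlrb2, a roadblock-type light chain known mainly from ciliated cells and testis (ENSRNOG00000012450; Rnor_6.0 chromosome 19, 49016891 to 49028404, plus strand), had 52.1, 29.0, 32.6 and 37.5 CPM in PAM 1 to 4, against 9.45, 12.7, 5.32 and 7.44 CPM in vehicle 1 to 4. The groups were far apart, with PAM 1 the highest, and its log2 fold change of 2.10 ± 0.26 was the largest increase among the 72 tested motor genes (edgeR, BH-adjusted p = 2.11e-05). Ependymal markers rose in the same libraries (median log2 fold change 1.72), and their part in the Dynlrb2 result was not tested. Its close relative Dynlrb1, the general form of the same light chain, had 415, 387, 559.6 and 650.4 CPM in PAM 1 to 4, against 439, 441, 461 and 483 CPM in vehicle 1 to 4. PAM 3 and PAM 4 stood above the vehicle libraries and PAM 1 and PAM 2 below them, and it did not pass (0.14 ± 0.14). The value was -0.01 without PAM 4, -0.07 with the length trend removed and -0.17 without both PAM 3 and PAM 4. Dynlt1, a Tctex-type light chain that also binds other receptors and channels, had 179.8, 177, 185 and 224 CPM in PAM 1 to 4, against 126, 138, 124 and 145 CPM in vehicle 1 to 4. All PAM values exceeded all vehicle values, PAM 4 by the most, and Dynlt1 rose at 0.52 ± 0.11 (edgeR, BH-adjusted p = 0.00273), or 0.34 with the length trend removed (edgeR, BH-adjusted p = 0.0340). Dynll1 and Dynll2, hub proteins shared by dynein and myosin V, were at 447 ± 62.8 CPM in PAM and 380.2 ± 37.3 CPM in vehicle libraries for Dynll1 and 353 ± 18.4 CPM in PAM and 391 ± 23.7 CPM in vehicle libraries for Dynll2, and neither passed (0.23 ± 0.11 and -0.15 ± 0.10). Over the alternative fits the Dynll1 value ran from 0.04 to 0.29. Dynlt3 had a log2 fold change of -0.14 ± 0.11 and did not pass. Short light chain genes can have near-identical copies elsewhere in the genome, so their counts are uncertain.

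Dynactin, the complex that switches dynein on and holds it to cargo, had no gene past the test with all libraries. Dctn1, which encodes the microtubule-binding arm p150Glued, had 642, 632, 740.3 and 705 CPM in PAM 1 to 4, against 851, 783, 776 and 794 CPM in vehicle 1 to 4. PAM values were all lower, yet the gene did not pass, at -0.24 ± 0.10 (edgeR, BH-adjusted p = 0.0958). DESeq2 as run here gave an adjusted p of 0.0426, against 0.0519 in the authors' deposited DESeq2 comparison. Without both PAM 3 and PAM 4, edgeR gave a BH-adjusted p of 0.00409. Dctn2, the gene of the p50 subunit dynamitin, was at 343 ± 56.7 CPM in PAM and 389 ± 23.9 CPM in vehicle libraries (-0.18 ± 0.12), and it passed without both PAM 3 and PAM 4 (-0.36, edgeR, BH-adjusted p = 0.00364). Its annotated span meets that of Kif5a on the opposite strand without a shared exonic base. Dctn3 was at 137 ± 35.5 CPM in PAM and 129 ± 8.75 CPM in vehicle libraries (0.08 ± 0.15), and it was -0.07 without PAM 4, -0.08 with the length trend removed and -0.24 without both PAM 3 and PAM 4. Dctn4, Dctn5 and Dctn6, subunits of the complex's pointed end, had log2 fold changes of -0.32 ± 0.26, -0.07 ± 0.14 and -0.11 ± 0.13. Dynein-2, the retrograde motor inside cilia, did not pass either, with its heavy chain gene Dync2h1 at 18.1 ± 5.52 CPM in PAM and 17.7 ± 4.03 CPM in vehicle libraries (0.05 ± 0.25) and its light intermediate chain gene Dync2li1 at 23.1 ± 7.90 CPM in PAM and 17.9 ± 4.54 CPM in vehicle libraries (0.36 ± 0.26). Kif1bp, which encodes a protein that binds and blocks kinesins and is no motor itself, was at 89.5 ± 21.7 CPM in PAM and 103 ± 13.5 CPM in vehicle libraries (-0.21 ± 0.16).

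Myosins V and VI walk in opposite directions on actin. Of their tested genes Myo5a fell, Myo6 rose and Myo5b did not pass. Myo5a, a carrier of organelles and RNA into dendritic spines, had 30.4, 32.8, 18.9 and 27.4 CPM in PAM 1 to 4, against 57.0, 41.0, 40.4 and 53.4 CPM in vehicle 1 to 4. It fell without overlap, with PAM 3 the lowest, at -0.80 ± 0.19 (edgeR, BH-adjusted p = 0.00581). Myo6, the minus-end motor of endocytosis (ENSRNOG00000011852; Rnor_6.0 chromosome 8, 87630916 to 87731269, plus strand), had 75.1, 93.4, 68.7 and 78.6 CPM in PAM 1 to 4, against 57.3, 50.1, 52.9 and 52.4 CPM in vehicle 1 to 4. All PAM values were above all vehicle values, PAM 2 the highest, and Myo6 rose at 0.57 ± 0.13 (edgeR, BH-adjusted p = 0.00482). Both calls held in each fit run, with log2 fold changes without PAM 3 and PAM 4 of -0.58 for Myo5a and 0.68 for Myo6. Myo5b, which moves recycling endosomes, had 5.30, 7.68, 3.56 and 6.13 CPM in PAM 1 to 4, against 10.1, 9.91, 9.71 and 10.03 CPM in vehicle 1 to 4. PAM values were all lower than the nearly equal vehicle values, but the gene did not pass at these low counts (-0.80 ± 0.32, edgeR, BH-adjusted p = 0.0931).

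Of the other myosins, Myo18a and Myo9a fell and 5 did not pass. Myo18a, linked to the Golgi and with little motor activity of its own, had 85.7, 82.5, 76.4 and 81.1 CPM in PAM 1 to 4, against 115, 111, 109 and 115 CPM in vehicle 1 to 4. The libraries of each group lay close together and the groups apart, with a log2 fold change of -0.46 ± 0.11 (edgeR, BH-adjusted p = 0.00502). Myo9a, a myosin that also carries a signalling domain, had 5.30, 9.17, 3.29 and 3.24 CPM in PAM 1 to 4, against 14.3, 11.6, 10.3 and 13.3 CPM in vehicle 1 to 4 and fell at -1.19 ± 0.35 (edgeR, BH-adjusted p = 0.0218). Its counts were few, and the call ended without vehicle 1, 2 or 4 or PAM 3 (edgeR, BH-adjusted p = 0.0512 to 0.0653 in those fits) or without both PAM 3 and PAM 4 (-0.75, edgeR, BH-adjusted p = 0.111). Its relative Myo9b was at 66.0 ± 9.40 CPM in PAM and 57.3 ± 7.78 CPM in vehicle libraries and did not pass (0.21 ± 0.14). Myo16, a neuronal myosin of actin regulation, had 71.2, 61.2, 55.3 and 89.8 CPM in PAM 1 to 4, against 97.3, 85.9, 87.7 and 94.5 CPM in vehicle 1 to 4. Only PAM 4 reached the vehicle range, and the gene missed the threshold at -0.40 ± 0.14 (edgeR, BH-adjusted p = 0.0539). It passed without PAM 4 (-0.54, edgeR, BH-adjusted p = 0.00370), without both PAM 3 and PAM 4 (-0.45, edgeR, BH-adjusted p = 0.00953), with no low-count filter (edgeR, BH-adjusted p = 0.0298) and in limma-voom (0.0378). Myo10, the motor of filopodia, had 71.7, 81.7, 56.4 and 23.4 CPM in PAM 1 to 4, against 46.0, 44.3, 40.4 and 42.4 CPM in vehicle 1 to 4. PAM 4 alone lay under the vehicle values and the other PAM libraries above them, so that the log2 fold change was 0.45 ± 0.26 with all libraries and 0.69 without PAM 4 (edgeR, BH-adjusted p = 0.00144). Without both PAM 3 and PAM 4 it was 0.84 (edgeR, BH-adjusted p = 2.29e-05). Myo19, a mitochondrial myosin, and Myo7a, known from sensory hair cells, were low and at -0.67 ± 0.39 and 0.73 ± 0.71. The class I myosins, which link membranes to actin, had none past the test, with log2 fold changes of -0.44 ± 0.21 for Myo1c, 0.40 ± 0.43 for Myo1d and -0.54 ± 0.30 for Myo1e. Myo1c was at 15.5 ± 2.87 CPM in PAM and 21.3 ± 2.20 CPM in vehicle libraries, and Myo1e at 14.1 ± 7.13 CPM in PAM and 21.0 ± 3.94 CPM in vehicle libraries.

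**Figure D4:**
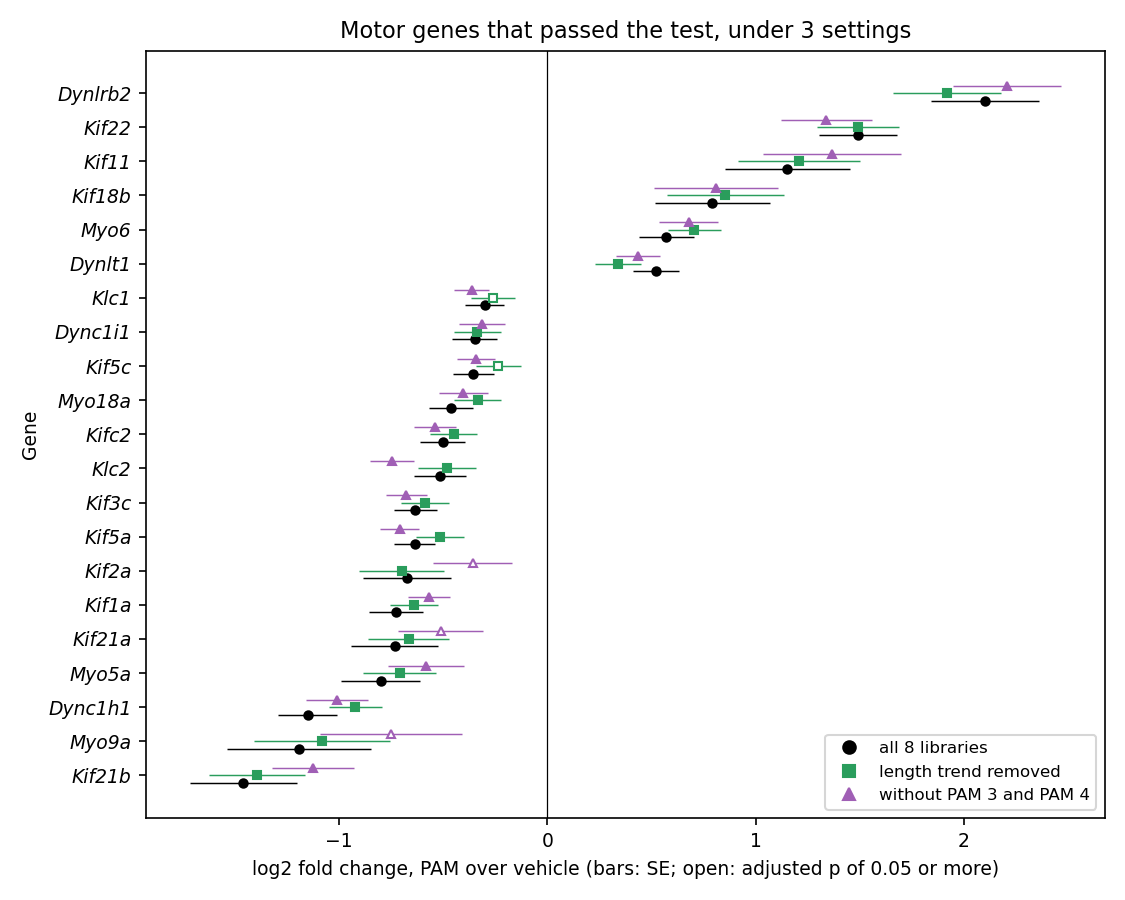
Log2 fold change (PAM over vehicle, bars of 1 SE) of the 21 motor genes past the test, with all 8 libraries (circles), with each library's trend with exonic length removed (squares) and without PAM 3 and PAM 4 (triangles). Open symbols mark an adjusted p of 0.05 or more, found for Klc1 and Kif5c with the length trend removed and for Kif2a, Kif21a and Myo9a without PAM 3 and PAM 4, and no gene changes sign.

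Adaptors and partners that join motors to cargo but lie outside the 81 genes were described from a list of 36, of which 33 were tested. Of these 6 fell and none rose, and their median log2 fold change was -0.19, beside 0.02 and 9.89% called lower over all tested genes. Mapk8ip2, a scaffold that binds kinesin light chains, was at 178 ± 27.3 CPM in PAM and 285 ± 16.1 CPM in vehicle libraries and fell at -0.68 ± 0.12 (edgeR, BH-adjusted p = 0.000397). Bicdl1, which joins dynein to Rab6 vesicles and kinesin, was at 30.2 ± 5.05 CPM in PAM and 46.3 ± 3.63 CPM in vehicle libraries and fell at -0.62 ± 0.16 (edgeR, BH-adjusted p = 0.0118). In neither gene did the groups overlap.

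Levels of genes are set side by side per exonic length, which takes read coverage as even along transcripts, and this was not tested. Library trends of log2 CPM with length differed, at -0.132 per doubling in PAM 4 and 0.0627 in PAM 2. The order of genes of unlike length is therefore uncertain. The light chain genes Dynlrb1 and Dynll1 led, at 764 ± 189 and 686 ± 96.4 CPM per kilobase in PAM libraries and 693 ± 31.4 and 583 ± 57.2 in vehicle libraries (SD, n = 4 each). Klc1 followed, at 296 ± 18.5 CPM per kilobase in PAM and 364 ± 13.1 in vehicle libraries. Among transport kinesins in PAM libraries, the order was Kif5c at 60.4 ± 4.88, Kif3c at 50.1 ± 3.89, Kif5a at 43.4 ± 3.48, Kifc2 at 38.7 ± 4.58, Kif1b at 36.8 ± 1.31 and Kif1a at 30.1 ± 6.20 CPM per kilobase. In vehicle libraries it was Kif3c at 77.7 ± 4.84, Kif5c at 77.3 ± 1.97, Kif5a at 67.4 ± 3.09, Kifc2 at 54.8 ± 0.657, Kif1a at 49.9 ± 3.53 and Kif1b at 38.7 ± 1.39 CPM per kilobase. Among neighbours in the PAM order, ranges of mean ± SD overlapped for Kif3c and Kif5a, Kif5a and Kifc2, Kifc2 and Kif1b, and Kif1b and Kif1a. In the vehicle order they overlapped for Kif3c and Kif5c. The order within these pairs is not settled. Kif22 led the mitotic kinesins in PAM libraries, at 16.7 ± 2.31 CPM per kilobase, against 5.92 ± 0.673 in vehicle libraries. Kif20a stood at 8.29 ± 2.55 CPM per kilobase in PAM and 6.94 ± 0.872 in vehicle libraries.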

How the data were processed

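Polyadenylated RNA of 8 libraries, 4 PAM and 4 vehicle, was analysed, grouped by the labels. Per the submitters' processing notes, STAR, featureCounts, DESeq2 and DESeq were used with build Rnor_6.0. The sources used here give neither the strand setting nor how multi-mapped reads were treated. The deposited files hold raw counts per gene with exon coordinates, given here 1-based. A deposited comparison table holds group means as a normalized signal, log2 fold changes and p-values computed by the authors, and it gave the gene symbols. Its 368 repeated rows were dropped.

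PAM was tested against vehicle on the deposited counts with edgeR 4.0.16 in R 4.3.3 (trimmed-mean scaling, the package's expression filter, robust quasi-likelihood test, no covariates), with p-values adjusted by Benjamini-Hochberg over all 11740 tested genes. CPM are counts scaled to each library's size after trimmed-mean scaling, not to its raw total. For PAM 1 that size was 4338728, against a raw total of 4192778. Replicates varied by a common biological coefficient of 17.7%. A count of 0 allows up to 3 counts for counting error alone, or 0.683 to 1.01 CPM if scaled to the raw totals instead. The procedure was tested on simulated data, where 8 of 126 calls were false. It recovered 25.4% of planted 1.5-fold changes, 61.5% of 2-fold changes and 96.9% of 4-fold changes. The simulation gave far fewer calls than the data (126 against 2218), so its recovery rates need not hold for the data. A gene that did not pass may still differ by 1.5-fold or 2-fold. Alternatives were 2 other scalings, 2 other filters, DESeq2 1.42.0, limma-voom (limma 3.58.1), the replicate number as a block, correcting every library for its length trend, narrower kinesin classes, leaving out each library, and leaving out PAM 3 and PAM 4 together. Genes past the test and the 3 most abundant of each role class were named with values, the others with a log2 fold change or as counts, and the values of 1 gene are not reported here. The genes, role classes, marker lists and tests were chosen with earlier results of these data known. Promoters came from RefSeq (GRCr8), and no coordinate was converted between builds.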

Additional observations from a re-analysis of the deposited data

Results flagged for a closer look

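In 98 groups of 4 libraries, 3 had a single library whose gap to the nearest other exceeded Dixon's 95% critical value, and chance gives about 5% of groups. Dynlt1 stood at 224 CPM in PAM 4, against 177 to 185 CPM in the other PAM libraries. Kif22 stood at 11.6 CPM in vehicle 1, against 14.6 to 15.0 CPM in the other vehicle libraries. Dync1li2 stood at 192 CPM in vehicle 1, against 166 CPM in each of the other vehicle libraries.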

How the results depend on the processing

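All 21 called motor genes had the same sign under the 17 alternatives to the fit with all libraries, and 14 passed the test under each of them. The exceptions that lost the call under at least 1 were Dync1i1, Klc1, Kif18b, Myo9a, Kif2a, Kif21a and Kif5c, with values given beside them. Without both PAM 3 and PAM 4 the motor genes that rose numbered 15 against 6, and the mitotic kinesins that rose 7 against 3, while calls over all genes numbered 2900 against 2218. The narrower transport class had 4 genes lower against 7, and the transport median was -0.16 with the length trend removed, against -0.25. Leaving out each library in turn gave 5 to 8 motor genes higher, 10 to 16 lower, and mitotic medians of 0.61 to 0.84.

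With the replicate number as a block, 5 motor genes rose and 15 fell, against 6 and 15 without it. Under it Dync1i1 and Kif18b lost the call (edgeR, BH-adjusted p = 0.0501 and 0.0590), Myo16 gained one (0.0431), and no other motor gene's call changed. No pairing by number was seen: deviations of same-numbered libraries correlated at 0.0516, -0.0454, 0.0676 and -0.0595. Such values cannot exclude a pairing, and what the numbers mark is not given in the sources used here.

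Sign changed only among genes that had not passed. With the length trend removed the log2 fold change was -0.081 for Dctn3, -0.069 for Dynlrb1, 0.0085 for Klc4 and 0.16 for Kif1b, and with upper-quartile scaling 0.022 for Klc4. Without both PAM 3 and PAM 4 it was -0.24 for Dctn3, 0.00032 for Dctn4, -0.17 for Dynlrb1, 0.13 for Kif13a and 0.0033 for Kif1bp. Leaving out single libraries gave -0.074 to 0.19 for Dctn3, -0.15 to 0.048 for Dctn5, -0.11 to 0.22 for Dync2h1 and -0.0078 to 0.25 for Dynlrb1. It gave -0.24 to 0.057 for Kif13a, -0.31 to 0.24 for Kif13b, -0.35 to 0.0056 for Kif16b and -0.011 to 0.66 for Kif18a. It gave -0.20 to 0.25 for Kif26a, -0.15 to 0.38 for Kif5b, -0.037 to 0.12 for Kifc3 and -0.13 to 0.091 for Klc4. The cause was not tested.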
